A study of Mus musculus with 24 samples.

Results

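Mitochondria keep their own DNA (mtDNA), and the proteins that copy it, transcribe it, stabilise its RNA and watch over the proteins made from it are encoded in the nucleus. The genes described here are 40 nuclear genes of this kind, chosen by name from a list of symbols and matched to the table through the GENCODE vM21 annotation. All 40 were among the 15323 genes of the table, and all 40 passed the filter on low values in both tissues. By role they are 6 genes of mtDNA replication, 3 of nucleotide supply, 6 of mtDNA transcription, 2 that stabilise mitochondrial RNA, 6 regulators of mitochondrial biogenesis, 4 chaperones, 8 proteases, 2 prohibitins and 3 genes of membrane fusion.

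As background, POLRMT is the RNA polymerase of mitochondria and works with TFAM and TFB2M, while POLG copies mtDNA behind the helicase TWNK. LRPPRC and SLIRP form a complex that keeps mitochondrial mRNAs stable. PGC-1α and PGC-1β, encoded by Ppargc1a and Ppargc1b, raise mitochondrial biogenesis through NRF1, GABPA and the estrogen-related receptors, and are known for high activity in heart muscle. HSP60 and its co-chaperonin HSP10 fold imported proteins, LONP1 and the CLPXP protease degrade matrix proteins, and prohibitins form rings in the inner membrane.

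The mice of the series combine 2 nuclear genomes with 2 mtDNAs, which asks how liver and heart respond when both do not come from 1 strain. Genotypes are written as nuclear genome, colon, mtDNA. The conplastic lines are NZB:C57 (NZB nuclear genome, C57 mtDNA) and BL/6J:NZB (C57BL/6 nuclear genome, NZB mtDNA), each made by 10 generations of backcrossing, and the parental lines are NZB:NZB and BL/6J:C57. Polyadenylated RNA came from the left ventricle (called heart) and the median lobe of the liver of males aged 10 weeks. RNA of 4 animals was pooled for each library, with 3 libraries of different animals in each of the 8 groups, so the spread between libraries is one between pools. Whether the heart and liver pools share animals is not stated. Libraries of the BL/6J nuclear genome are titled mix and those of the NZB nuclear genome rep, so any step that differed between mix and rep samples and the nuclear genome cannot be told apart.

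The values are read counts normalised by the authors. Whole reads were recovered from them and came to between 3714278 and 12949956 per heart library and between 7294525 and 34974268 per liver library. The summed values of 13 cardiomyocyte markers lay between 35778 and 304100 in hearts. In livers they summed to 57.2 to 195 in NZB:NZB, 0.945 to 1.30 in BL/6J:NZB and 0.438 to 0.529 in BL/6J:C57. NZB:C57 livers ran from 0.549 to 180.5, so their pools differed widely and the lowest was below the BL/6J:NZB livers. In each BL/6J nuclear group 5 of the 13 markers were at 0 in all livers. The values of 16 hepatocyte markers summed to between 17.2 and 226 in hearts, and in livers to at least 198380 with the NZB nuclear genome, against at most 159710 with the BL/6J nuclear genome. NZB:C57 hearts stood apart most. Their 20 most abundant genes took 33.4% to 34.1% of all reads, against 11.5% to 14.5% in the other hearts, and their cardiomyocyte markers summed to between 297800 and 304100, against 35778 to 54622 in the other hearts. For comparisons of genotypes that rest on NZB:C57 hearts, counts of called members are therefore given also on a scale of library totals only. Values of single members are given on that scale only in part, and those of other genes are not. In pooled tissue, fewer cells of a type and less RNA per cell cannot be told apart.

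The promoters of 4 members are printed because their genes carry the differences described below: Slirp and Polrmt between mtDNA and nuclear combinations, Tfb2m between nuclear genomes, and Hspe1, whose start site lies head to head with that of Hspd1. Each window runs from 250 bases before to 50 bases after the start site, 5′ to 3′ on the strand of the gene, from RefSeq on GRCm38.p6. Capitals mark the motifs found on either strand: CCGGAAG, bound by ETS factors such as GABPA, GCATGCGC, bound by NRF1, and AAGATGGCG, bound by YY1.
Slirp, chr12:87443646-87443945, plus strand: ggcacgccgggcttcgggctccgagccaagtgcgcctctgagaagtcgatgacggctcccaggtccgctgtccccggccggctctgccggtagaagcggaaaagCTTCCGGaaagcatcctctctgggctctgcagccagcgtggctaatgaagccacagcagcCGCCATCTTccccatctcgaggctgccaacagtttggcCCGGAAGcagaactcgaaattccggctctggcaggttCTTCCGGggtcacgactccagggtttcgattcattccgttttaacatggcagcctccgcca
Polrmt, chr10:79746532-79746831, minus strand: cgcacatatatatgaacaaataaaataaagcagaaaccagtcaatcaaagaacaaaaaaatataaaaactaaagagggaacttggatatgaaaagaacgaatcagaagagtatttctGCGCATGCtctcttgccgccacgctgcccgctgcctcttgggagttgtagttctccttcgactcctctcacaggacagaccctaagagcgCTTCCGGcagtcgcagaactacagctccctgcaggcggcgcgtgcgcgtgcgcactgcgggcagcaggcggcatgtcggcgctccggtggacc
Tfb2m, chr1:179546227-179546526, minus strand: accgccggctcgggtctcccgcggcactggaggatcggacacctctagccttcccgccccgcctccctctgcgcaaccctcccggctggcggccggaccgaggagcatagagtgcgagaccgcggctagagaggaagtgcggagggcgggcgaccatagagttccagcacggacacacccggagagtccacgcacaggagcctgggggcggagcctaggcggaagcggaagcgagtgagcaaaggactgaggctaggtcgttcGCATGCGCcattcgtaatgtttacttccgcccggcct
Hspe1, chr1:55087898-55088197, plus strand: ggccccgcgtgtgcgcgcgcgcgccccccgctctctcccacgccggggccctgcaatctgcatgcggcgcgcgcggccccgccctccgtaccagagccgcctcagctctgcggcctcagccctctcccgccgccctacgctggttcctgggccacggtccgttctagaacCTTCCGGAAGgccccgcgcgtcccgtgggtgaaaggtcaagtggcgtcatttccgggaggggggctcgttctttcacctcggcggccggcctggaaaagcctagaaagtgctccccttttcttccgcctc
The Slirp window held the ETS motif 3 times and the YY1 motif once, and the Polrmt window held 1 NRF1 and 1 ETS motif. The Tfb2m window held an NRF1 motif that starts 13 bases after the start site. In the Hspe1 window 2 ETS motifs overlap on opposite strands, and 285 of its bases also belong to the promoter window of Hspd1.

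RefSeq windows were matched for 33 of the 40 genes, in 41 windows. The ETS motif was in 39.0% of these windows, against 15.5% of the 14511 windows of genes in the table and 8.86% of all 32851 windows. The genes with it included Tfam, Polrmt, Polg, Twnk, Ssbp1, Slirp, Clpp and Gabpa itself. The NRF1 motif was in 12.2% of the members' windows, against 4.58% and 2.71% in the same sets, and its genes were Clpx, Esrra, Opa1, Polrmt and Tfb2m. The YY1 motif was in 7.32% of the members' windows, against 2.61% and 1.40%. The E-box CACGTG was in 7.32%, against 9.48% and 7.15%. TGATGCAA, bound by ATF4, was in 2.44%, against 0.606% and 0.895%, in the window of Esrra alone. TCAAGGTCA, bound by estrogen-related receptors, was in 0 of the members' windows, against 0.283% and 0.423%. Windows of members had a median GC content of 60%, equal to that of the genes in the table. A motif match is a description of the letters in these windows.

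Per kilobase of transcript, the chaperones Hspa9, Hspd1 and Hspe1 were among the most abundant members. Some replication genes and regulators were among the least, though the regulator Esrra was at 50.4 in heart. Median values per kilobase in heart were 254 for Hspa9, the mitochondrial HSP70, 173 for Hspd1, 172 for Mfn2, which fuses outer membranes, and 124 for Hspe1. In liver the same measure was 285 for Hspd1, 243 for Hspe1 and 233 for Hspa9. The lowest in heart were Polg2, the accessory subunit of the mtDNA polymerase, at 2.61 and Top1mt, the mitochondrial topoisomerase, at 2.71, and the lowest in liver was Esrrg, an estrogen-related receptor, at 0.769. Tfam, which packages mtDNA, was at 10.6 in heart and 13.9 in liver.

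**Figure D1:**
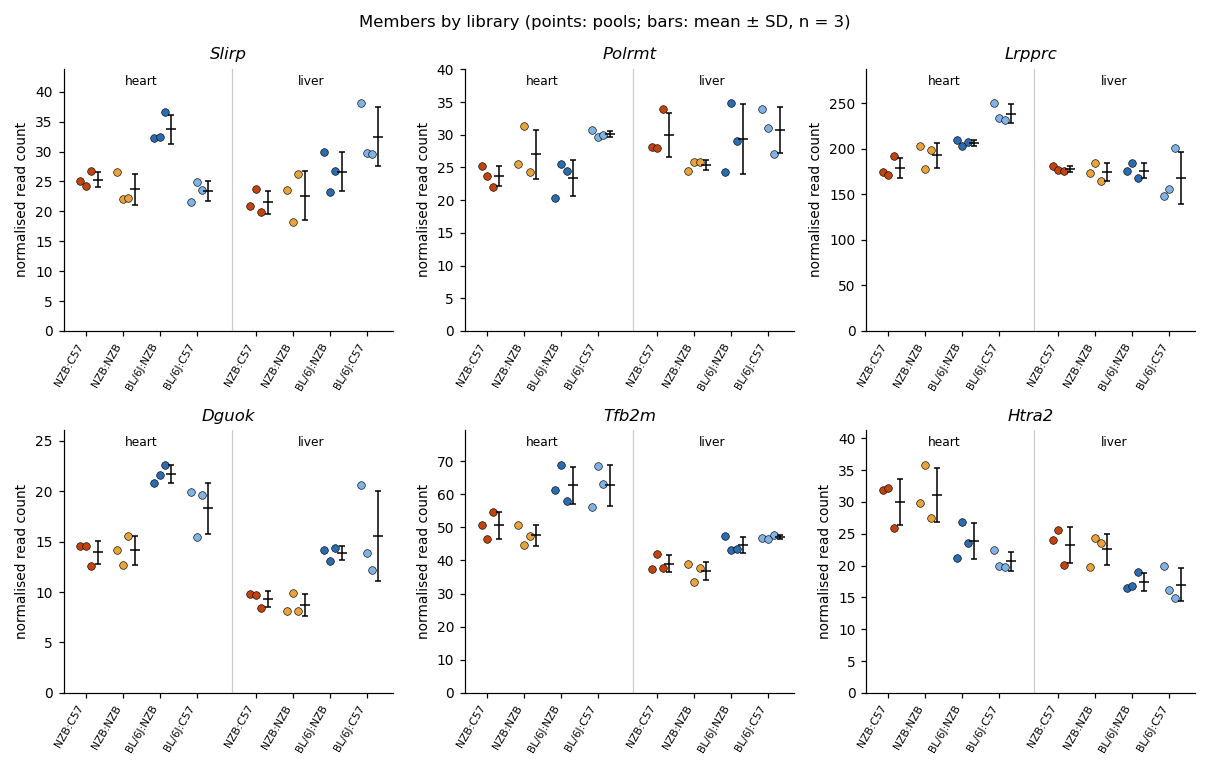
Normalised read counts (y axis) of 6 members in the 3 pools of each group (points), with mean ± SD beside them, hearts left and livers right in each panel. Slirp in the 3 BL/6J:NZB hearts lies between 32.2 and 36.5, above all BL/6J:C57 hearts, and Dguok and Tfb2m lie lower in NZB than in BL/6J nuclear genomes.

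The first comparison was between a conplastic and a parental line with the same BL/6J nuclear genome. In hearts 1 member rose, Slirp, whose product binds LRPPRC and stabilises mitochondrial mRNAs. Slirp (chr12:87443896-87452206 on GRCm38, plus strand, overlapping Alkbh1 and Snw1 on the other strand) had 32.2, 32.4 and 36.5 normalised reads in BL/6J:NZB hearts, against 21.6, 25.0 and 23.6 in BL/6J:C57 hearts. The groups did not overlap. The log2 fold change was 0.51 (SE 0.10, adjusted p = 0.0304, limma). The call was lost without BL/6J:C57 replicate 1 or 3 or BL/6J:NZB replicate 2 or 3, with adjusted p between 0.107 and 0.166, and adjusted p over all 15 alternatives ran from 0.0032 to 0.166. Over all genes tested, 0.427% rose and 0.507% fell in this comparison, and 1 of 40 members rose and 0 fell.

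Other members had low unadjusted p in BL/6J:NZB hearts and did not pass the adjusted threshold. The nearest to it were the fusion genes Mfn2 and Opa1. Mfn2 had 784, 741 and 743 normalised reads in BL/6J:NZB hearts, against 1042, 861 and 946 in BL/6J:C57 hearts (log2 fold change -0.32, SE 0.08, adjusted p = 0.0524, limma). Opa1 had 216, 204 and 185 in BL/6J:NZB hearts, against 255, 246 and 247 in BL/6J:C57 hearts (log2 fold change -0.31, SE 0.07, adjusted p = 0.0567, limma). Neither pair of groups overlapped. Polrmt had 20.3, 25.6 and 24.4 normalised reads in BL/6J:NZB hearts, against 30.7, 29.7 and 29.9 in BL/6J:C57 hearts (log2 fold change -0.36, SE 0.11, adjusted p = 0.121, limma). The 3 pools with NZB mtDNA lay below the 3 with C57 mtDNA. Lrpprc had 209, 203 and 207 in BL/6J:NZB hearts, against 251, 234 and 231 in BL/6J:C57 hearts (log2 fold change -0.21, SE 0.07, adjusted p = 0.152, limma), again with no overlap. The estimates for the complex partners Lrpprc and Slirp had opposite signs, but Lrpprc did not pass and the difference between them was not tested. Ssbp1, the single-stranded DNA-binding protein of mtDNA, had 27.9, 32.2 and 31.4 in BL/6J:NZB hearts, against 21.5, 25.1 and 25.1 in BL/6J:C57 hearts (log2 fold change 0.34, SE 0.12, adjusted p = 0.158, limma). Esrrg (-0.37, adjusted p = 0.1004), Mterf4 (0.43, adjusted p = 0.151), Afg3l2 (-0.15, adjusted p = 0.251) and Ppargc1b (-0.49, adjusted p = 0.262) were the others with an unadjusted p under 0.05. In all, 10 of the 40 members had an unadjusted p under 0.05 here, against 2340 of the 13803 genes tested. DESeq2 called 1 member higher and 3 lower on the recovered reads, and the share of all genes it called is not given here.

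In BL/6J livers the same exchange of mtDNA moved 0 of 40 members up and 0 down, against 0.0076% and 0.0% of all genes. The members' median log2 fold change was 0.05. An unadjusted p under 0.05 was found for 2 members, Clpp and Gabpa, against 1284 of the 13159 genes tested. edgeR and DESeq2 also called 0. Slirp had 29.8, 23.3 and 26.7 normalised reads in BL/6J:NZB livers, against 38.1, 29.7 and 29.6 in BL/6J:C57 livers (log2 fold change -0.27, 95% interval -0.59 to 0.04). The difference between hearts and livers in the effect of BL/6J:NZB passed the test for 0 members in either direction (12 at an unadjusted p under 0.05, 0 called by edgeR and 3 by DESeq2), against 0.02% of all genes higher and 0.0534% lower. Of the 14968 genes tested, 2502 had an unadjusted p under 0.05 in this contrast. Without BL/6J:C57 liver replicate 3, 8 members were called, and the share of all genes in that fit is not given here.

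The second comparison was between a conplastic and a parental line with the NZB nuclear genome. In NZB:C57 hearts against NZB:NZB hearts 0 members rose and 0 fell, where 13.0% of all genes rose and 2.89% fell. The members' log2 fold changes lay between -0.31 for Nrf1 and 0.20 for Mgme1, a nuclease that trims mtDNA, with a median of -0.01. Nrf1 had 9.25, 9.90 and 8.17 normalised reads in NZB:C57 hearts, against 10.8, 12.4 and 11.3 in NZB:NZB hearts (adjusted p = 0.0852, limma). Tfam had 45.5, 40.4 and 36.9 in NZB:C57 hearts, against 47.1, 37.2 and 43.9 in NZB:NZB hearts, and the groups overlapped. Nrf1 and Oma1 had an unadjusted p under 0.05, against 3497 of the 13803 genes tested, and edgeR and DESeq2 called 0 members.

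This count of 0 depends on the scaling. With library totals only, all 40 members fell in NZB:C57 hearts, by 0.46 to 0.96 on the log2 scale, and so did 74.1% of all genes. The median of all genes was then -0.65 and that of the members -0.68, a difference of -0.03. Under both scalings the 40 genes lay close to the median of all genes tested. The 20 most abundant genes and the cardiomyocyte markers set these hearts apart, and 13 of 13 of these markers were called higher with the authors' scaling. Their values with library totals only are not given here, and their part in the shift was not tested.

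**Figure D2:**
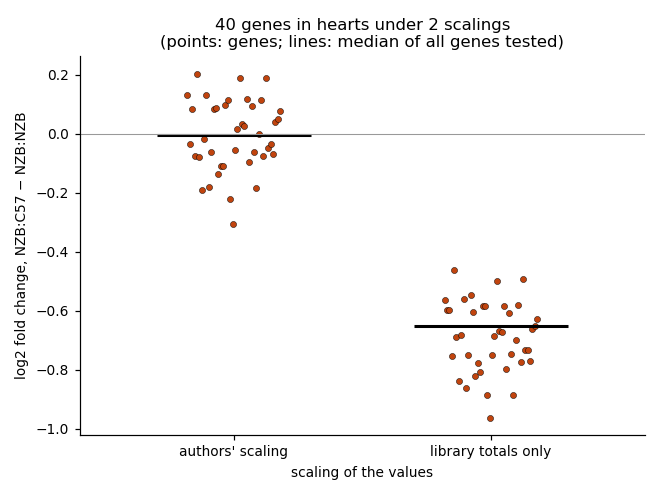
Log2 fold changes (y axis) of the 40 genes between NZB:C57 and NZB:NZB hearts, with the authors' scaling (left) and with library totals only (right). Each point is a gene, and the black lines, near 0 on the left and at -0.65 on the right, are the medians of all genes tested.

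In NZB:C57 livers against NZB:NZB livers 0 members rose and 0 fell, against 3.65% and 4.44% of all genes. The members' range was -0.27 to 0.32. An unadjusted p under 0.05 was found for 3 of them (Clpx, Mgme1 and Nrf1), against 2443 of the 13159 genes tested. edgeR and DESeq2 called 0 members. On the scale of library totals only, 9 members fell in this comparison, where the median of all genes was -0.22 and that of the members -0.23. So did 19.5% of all genes, while 2.70% rose.

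The effect of NZB:C57 differed between tissues for 4 members, 2 higher in heart than in liver and 2 lower, against 16.2% and 7.66% of all genes. Mgme1 had 15.03, 16.2 and 17.0 normalised reads in NZB:C57 hearts, against 15.1, 13.4 and 13.0 in NZB:NZB hearts, and 9.09, 10.1 and 9.38 in NZB:C57 livers, against 11.8, 12.4 and 10.8 in NZB:NZB livers. The heart effect minus the liver effect was 0.47 on the log2 scale (SE 0.14, adjusted p = 0.0189, limma). For Nrf1 the same difference was -0.61 (SE 0.17, adjusted p = 0.00876), with liver values of 10.7, 12.2 and 12.3 in NZB:C57, against 10.2, 8.16 and 9.73 in NZB:NZB. Clpx, the unfoldase of the CLPXP protease, gave -0.51 (SE 0.17, adjusted p = 0.0324, limma) and Oma1, a stress-activated protease of the inner membrane, 0.35 (SE 0.12, adjusted p = 0.0404, limma). On the scale of library totals only, where the median of all genes in this contrast was -0.41, Mgme1 was at 0.015 and lost its call (adjusted p = 0.935, limma), and Oma1 turned to -0.10 (adjusted p = 0.489). Nrf1 was then at -1.04 and Clpx at -0.96 (adjusted p 3.33e-05 and 7.87e-05), and DESeq2 called none of the 4. Over all alternatives adjusted p ran from 0.0132 to 0.935 for Mgme1, 3.33e-05 to 0.121 for Nrf1, 7.87e-05 to 0.0927 for Clpx and 0.0370 to 0.489 for Oma1. The Mgme1 call was lost without NZB:NZB liver replicate 2 (adjusted p = 0.0508), the Clpx call without 7 of the 12 libraries in turn (adjusted p 0.0544 to 0.0775) and the Oma1 call without 9 of them (0.0534 to 0.104). The Nrf1 call held without each of the 12.

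Averaging the effects of both conplastic lines gives the effect of mismatch, which is the interaction between nuclear genome and mtDNA on a scale of means. In hearts Slirp rose with mismatch and Polrmt and Lrpprc fell, 1 of 40 members higher and 2 lower, against 9.81% and 1.42% of all genes. Slirp gave 0.30 (SE 0.07, adjusted p = 0.00643, limma), Polrmt -0.27 (SE 0.08, adjusted p = 0.0301) and Lrpprc -0.16 (SE 0.05, adjusted p = 0.049997). In NZB:C57 against NZB:NZB hearts the effects of the same 3 genes were 0.10, -0.18 and -0.11, and in BL/6J:NZB against BL/6J:C57 hearts 0.51, -0.36 and -0.21. In NZB:C57 hearts Slirp had 25.0, 24.2 and 26.7 normalised reads, against 26.6, 22.1 and 22.3 in NZB:NZB hearts, with overlap. Polrmt had 25.2, 23.7 and 22.1 in NZB:C57 hearts, against 25.5, 31.3 and 24.3 in NZB:NZB hearts, also with overlap.

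With library totals only, the Slirp value for mismatch in hearts was -0.02, where the median of all genes was -0.30. On this scale 36 members fell, and so did 61.2% of all genes, while 4.96% rose. The Slirp call held without each of the 12 hearts. The Polrmt call was lost without any of the 3 BL/6J:C57 hearts, BL/6J:NZB replicate 1, NZB:NZB replicate 2 or NZB:C57 replicate 2 or 3 (adjusted p 0.0517 to 0.0782), and with DESeq2. The Lrpprc call was lost without all but NZB:NZB replicate 2 and NZB:C57 replicate 3 (0.0668 to 0.138), and under 6 of 9 other alternatives. In livers 0 members rose and 0 fell with mismatch, against 1.82% and 0.669% of all genes. At an unadjusted p under 0.05 were 1 member and 1347 of the 13159 genes tested, and edgeR and DESeq2 called 0 members.

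The remaining comparisons hold the mtDNA fixed and change the nuclear genome. On NZB mtDNA, hearts of NZB:NZB against BL/6J:NZB had 1 of 40 members higher and 12 lower, against 15.5% and 13.6% of all genes. On C57 mtDNA, hearts of NZB:C57 against BL/6J:C57 had 1 higher and 18 lower, against 22.1% and 13.1%. In livers 0 were higher and 8 lower on NZB mtDNA, against 12.9% and 11.9%, and 1 was higher and 8 lower on C57 mtDNA, against 13.1% and 14.8%. The lower share of members was thus 30% and 45% in hearts and 20% in both liver comparisons, and the higher share at most 2.5%. The liver shares lay closer to those of all genes (11.9% and 14.8%) than the heart shares did (13.6% and 13.1%). Whether the members' liver shares differ from the background was not tested. These pairs of comparisons share no libraries between the mtDNAs. Markers of cell types moved between the same groups. In hearts on C57 mtDNA, 13 of 13 cardiomyocyte, 9 of 9 endothelial, 9 of 10 fibroblast and 8 of 8 macrophage markers were higher. So were 7 of 12 hepatocyte and 4 of 5 erythroid markers tested, and 0 markers of these lists were lower. In hearts on NZB mtDNA, 7 of 10 fibroblast and 7 of 8 macrophage markers were higher and 7 of 13 cardiomyocyte markers lower. The fibroblast marker Des and 1 erythroid marker were also lower there, and 1 endothelial and 1 hepatocyte marker higher. Fibroblast markers summed to 4660 to 4751 in NZB:C57 and 2897 to 3324 in NZB:NZB hearts, against 1949 to 2052 in BL/6J:NZB and 2006 to 2276 in BL/6J:C57 hearts. Macrophage markers summed to 482 to 538 and 379 to 439 in the same NZB nuclear hearts, against 258 to 330.3 and 301 to 310.02 in the BL/6J nuclear hearts. In livers on NZB mtDNA, 13 of 13 cardiomyocyte, 6 of 10 stellate and fibroblast and 5 of 10 endothelial markers were higher. Of 16 hepatocyte markers 3 were higher and 3 lower, of 10 macrophage markers 1 and 2, and of 4 erythroid markers 2 and 1. On C57 mtDNA 12 of 13 cardiomyocyte, 9 of 16 hepatocyte and 1 of 10 stellate and fibroblast markers were higher. Lower there were 4 of 10 macrophage markers, 1 of 4 erythroid markers and the hepatocyte marker Hpx. The part of these markers in the members' counts was not tested.

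**Figure D3:**
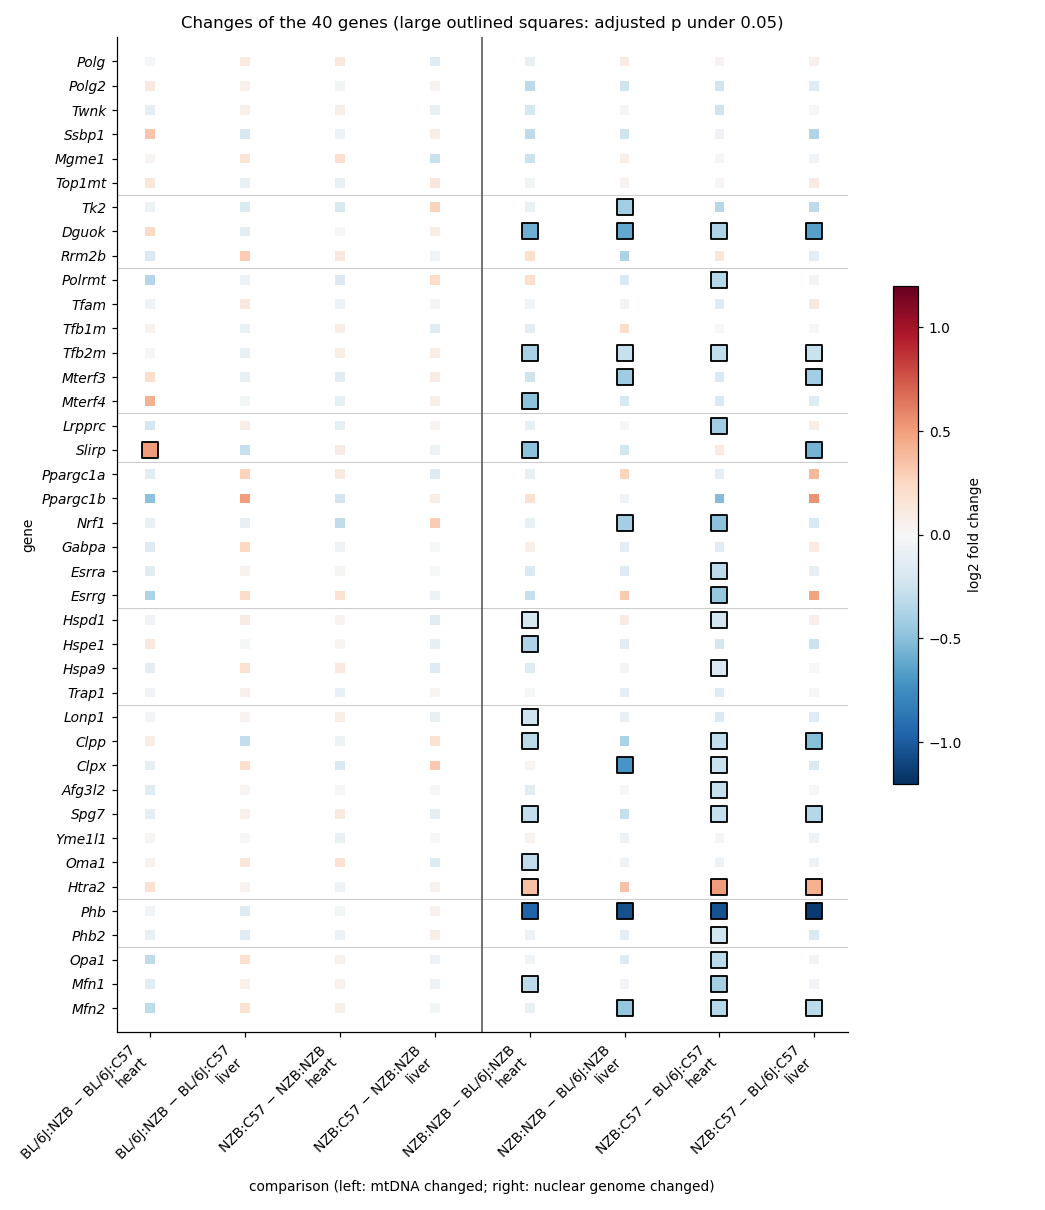
Log2 fold changes (colour) of the 40 genes, grouped by role, in 4 comparisons of mtDNA (left of the line) and 4 of the nuclear genome (right of the line). Large outlined squares have an adjusted p under 0.05: 1 left of the line, and 49 right of it, of which 3 (Htra2) are higher and the others lower in the NZB nuclear genome.

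Over the 4 nuclear comparisons, 22 of the 40 members (55%) had a negative log2 fold change in all 4, against 23.4% of the 12063 genes tested in both tissues. Called lower in all 4 were 3 members, Dguok, Tfb2m and Phb (7.5%, against 3.08% of the genes). Clpp, Spg7 and Mfn2 were lower in 3, and Mterf3, Slirp, Nrf1, Hspd1, Clpx and Mfn1 in 2. The members' medians were -0.15 and -0.23 in hearts on NZB and C57 mtDNA and -0.13 and -0.07 in livers, against medians of all genes between -0.03 and 0.02. Across the 40 genes, effects on both mtDNAs correlated with r = 0.84 (rho = 0.85) in livers and r = 0.49 (rho = 0.21) in hearts, where the libraries of each comparison share their reads and genes are not independent replicates. Without Phb, r was 0.77 in livers and 0.26 in hearts.

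Dguok, the mitochondrial deoxyguanosine kinase that supplies purine nucleotides for mtDNA, lies at chr6:83480217-83506969 on the minus strand. It had 14.1, 12.7 and 15.5 normalised reads in NZB:NZB hearts, against 20.9, 21.6 and 22.6 in BL/6J:NZB hearts, and 14.6, 14.6 and 12.6 in NZB:C57 hearts, against 20.0, 15.4 and 19.6 in BL/6J:C57 hearts. In livers it had 8.13, 9.93 and 8.07 in NZB:NZB, against 14.2, 13.1 and 14.4 in BL/6J:NZB, and 9.80, 9.70 and 8.40 in NZB:C57, against 20.6, 13.9 and 12.2 in BL/6J:C57. In each of the 4 pairs every NZB nuclear pool was below every BL/6J nuclear pool. The log2 fold changes were -0.59 and -0.37 in hearts and -0.62 and -0.66 in livers on NZB and C57 mtDNA (SE 0.12 in hearts and 0.16 in livers, adjusted p 0.00109, 0.0211, 0.0134 and 0.00920, limma). The call in livers on NZB mtDNA was lost without NZB:NZB replicate 1 or 3 (adjusted p 0.0515 and 0.0519), and that in hearts on C57 mtDNA without BL/6J:C57 replicate 1 or 3 or NZB:C57 replicate 3 (0.0842 to 0.0953). Of the other enzymes of nucleotide supply, Tk2, the mitochondrial thymidine kinase, fell in livers on NZB mtDNA (-0.42, SE 0.14, adjusted p = 0.0380, limma), a call lost without 5 of the 6 libraries in turn (0.0647 to 0.135) and with a replicate block (0.0598), and Rrm2b, a ribonucleotide reductase subunit, passed in none of the 4 comparisons. The 6 replication genes, among them Polg, Twnk and Ssbp1, also passed in none.

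Of the 6 transcription genes, Tfb2m was lower in all 4 nuclear comparisons. It had 50.8, 44.5 and 47.5 normalised reads in NZB:NZB hearts, against 61.4, 68.9 and 58.0 in BL/6J:NZB hearts, and 38.8, 33.6 and 37.6 in NZB:NZB livers, against 47.4, 43.0 and 43.5 in BL/6J:NZB livers. The groups did not overlap in these pairs. The log2 fold changes were -0.39 and -0.28 there (SE 0.09 in each, adjusted p 0.00465 and 0.0366, limma), and -0.30 in hearts and -0.26 in livers on C57 mtDNA (adjusted p 0.0189 and 0.0412). Tfb2m shares 35.9% of its 31-base words with other annotated genes, mostly Gm1818. Summed with Gm1818, the values on C57 mtDNA were -0.24 in hearts and -0.22 in livers and did not pass (adjusted p 0.0727 and 0.0741), and over all alternatives adjusted p ran from 1.17e-06 to 0.098 and from 0.0250 to 0.126. In livers the calls were lost without 5 of 6 libraries in turn on either mtDNA (adjusted p 0.0600 to 0.157). The liver call on NZB mtDNA was also lost under 3 of 9 other alternatives: library totals only, DESeq2 and a replicate block (adjusted p = 0.0569 with the block). That on C57 mtDNA was lost under 6 of 9: the summed fit, recomputed TMM, edgeR, DESeq2, the replicate block and only the groups compared. The heart call on C57 mtDNA was lost without BL/6J:C57 replicate 2 or 3 or NZB:C57 replicate 2. Mterf3, which represses mtDNA transcription, fell in livers, to 22.5, 20.7 and 22.6 in NZB:NZB, against 32.8, 28.7 and 28.1 in BL/6J:NZB (-0.43, SE 0.11, adjusted p = 0.0100, limma), and by 0.42 on C57 mtDNA (adjusted p = 0.0114), a call lost without NZB:C57 replicate 3 (0.0511). Mterf4 fell in hearts on NZB mtDNA (-0.49, adjusted p = 0.0175) and Polrmt in hearts on C57 mtDNA (-0.34, adjusted p = 0.0219), each lost without 3 of 6 libraries in turn (0.0539 to 0.0938). Tfam and Tfb1m passed in none of the 4.

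Slirp was lower in NZB:NZB than in BL/6J:NZB hearts (-0.50, SE 0.10, adjusted p = 0.00106, limma) and lower in NZB:C57 than in BL/6J:C57 livers (-0.57, SE 0.15, adjusted p = 0.0118), the call in livers being lost without BL/6J:C57 replicate 1 (0.0518). The 3 BL/6J:NZB hearts of the first of these are also those of the mtDNA comparison above. In NZB:C57 against BL/6J:C57 hearts, Slirp had 25.0, 24.2 and 26.7 against 21.6, 25.0 and 23.6, with overlap. Lrpprc fell in that pair to 174, 171 and 192 in NZB:C57 hearts, against 251, 234 and 231 in BL/6J:C57 hearts (-0.41, SE 0.07, adjusted p = 0.000142, limma), and held without each of the 6 libraries. Of the regulators, 3 of 6 fell in the same pair of hearts: Nrf1 by 0.50 (SE 0.11, adjusted p = 0.00235), Esrrg by 0.46 (SE 0.11, 0.00229) and Esrra by 0.31 (SE 0.07, 0.00255), each held without any 1 library. The 3 BL/6J:C57 hearts of this pair are also those of the mtDNA comparison above, where Lrpprc gave -0.21. In hearts on NZB mtDNA Lrpprc was at -0.10 and did not pass. The 6 regulators ran from -0.28 to 0.19 there, with 0 called. Nrf1 also fell in livers on NZB mtDNA (-0.41, adjusted p = 0.0393), a call lost without each of the 6 libraries (0.0505 to 0.156). Ppargc1a, Ppargc1b and Gabpa did not pass in any nuclear comparison.

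Among chaperones, Hspe1 fell in NZB:NZB hearts, with 89.0, 76.0 and 89.9 normalised reads, against 107, 103 and 119 in BL/6J:NZB hearts (-0.37, SE 0.09, adjusted p = 0.00728, limma). Hspd1, which starts head to head with it, gave -0.20 in the same pair (SE 0.07, adjusted p = 0.0441), a call lost without 5 of 6 libraries in turn (0.0539 to 0.172). In hearts on C57 mtDNA Hspd1 (-0.22, adjusted p = 0.0243) and Hspa9 (-0.17, adjusted p = 0.0380) fell, calls lost without 3 and 5 of 6 libraries in turn (0.0630 to 0.159), and Trap1 passed in no nuclear comparison. Both Hspd1 and Hspe1 share over 10% of their 31-base words with copies that are not analysed here, so their own levels are uncertain. Among the 8 proteases, Clpp, the peptidase of CLPXP, was lower in hearts on both mtDNAs (-0.33 and -0.30, adjusted p 0.0317 and 0.0425) and in livers on C57 mtDNA (-0.51, adjusted p = 0.0132). The heart calls of Clpp were lost without 3 and 5 of 6 libraries in turn (adjusted p 0.0573 to 0.170). Clpx fell in livers on NZB mtDNA, with 298, 305 and 296 in NZB:NZB, against 549, 565 and 379 in BL/6J:NZB (-0.71, SE 0.13, adjusted p = 0.00137, limma). Clpx also fell in hearts on C57 mtDNA (-0.27, adjusted p = 0.0324), a call lost without 4 of 6 libraries in turn (0.0604 to 0.131). In hearts on NZB mtDNA Lonp1 fell by 0.25 (adjusted p = 0.0115) and Oma1 by 0.30 (adjusted p = 0.0108), and both passed without each library but not with library totals only. Yme1l1 passed in no nuclear comparison.

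Htra2, a serine protease of the intermembrane space, was the only member called higher with the NZB nuclear genome. It had 29.8, 35.8 and 27.5 normalised reads in NZB:NZB hearts, against 21.2, 26.8 and 23.6 in BL/6J:NZB hearts, and 31.8, 32.2 and 25.8 in NZB:C57 hearts, against 22.4, 19.9 and 19.8 in BL/6J:C57 hearts. In both pairs every NZB nuclear heart was above every BL/6J nuclear heart. The log2 fold changes were 0.36 (SE 0.12, adjusted p = 0.0287, limma) and 0.51 (SE 0.12, adjusted p = 0.00258) in hearts, and 0.43 (SE 0.13, adjusted p = 0.0284) in livers on C57 mtDNA. In livers on NZB mtDNA the value was 0.35 (adjusted p = 0.0697). On library totals only, the value in hearts on C57 mtDNA was -0.06, where the median of all genes was -0.53. The calls in hearts on NZB mtDNA and livers on C57 mtDNA were lost without 3 and 4 of 6 libraries in turn (adjusted p 0.0692 to 0.141). Htra2 (chr6:83051266-83055273, minus strand) overlaps Aup1 and Loxl3 on the other strand, and no source used here says whether reads were counted by strand.

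The genes of membrane fusion fell in hearts of NZB:C57 against BL/6J:C57: Mfn1 had 298, 284 and 306 normalised reads in NZB:C57 hearts, against 417, 395 and 369 in BL/6J:C57 hearts (-0.41, SE 0.07, adjusted p = 7.97e-05, limma). Mfn2 fell by 0.34 (SE 0.08, adjusted p = 0.00210) and Opa1, which fuses inner membranes, by 0.32 (SE 0.07, adjusted p = 0.00247). All 3 calls held without each of the 6 libraries. Mfn1 also fell in hearts on NZB mtDNA (-0.33, adjusted p = 0.00119). Mfn2 and Opa1 did not pass there, where the 3 fusion genes had a median of -0.09 and a highest value of -0.05. The 3 BL/6J:C57 hearts are also those of the mtDNA comparison above. In that comparison Mfn2 gave -0.32 and Opa1 -0.31 in BL/6J:NZB against BL/6J:C57 hearts. Mfn2 was also lower in livers on NZB mtDNA (-0.47, SE 0.11, adjusted p = 0.00606) and on C57 mtDNA (-0.33, adjusted p = 0.0377, lost without 5 of 6 libraries in turn, 0.0619 to 0.102). Afg3l2, a subunit of the m-AAA protease, fell by 0.28 in NZB:C57 against BL/6J:C57 hearts (SE 0.06, adjusted p = 0.00179). Its partner Spg7 fell by 0.29 in hearts on either mtDNA (adjusted p 0.0233 and 0.0191) and by 0.34 in livers on C57 mtDNA (0.0314). These Spg7 calls were lost without 4, 2 and 4 of 6 libraries in turn (adjusted p 0.0544 to 0.112). With library totals only, 39 members fell in NZB:C57 against BL/6J:C57 hearts, with a median of -0.80 against -0.53 over all genes, a difference of -0.27. On that scale 65.0% of all genes fell and 11.9% rose.

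Leaving out single libraries moved these counts. Shares of all genes in those fits are not given here. In hearts on NZB mtDNA 13 members were called in all and 8 without BL/6J:NZB replicate 3. In livers on NZB mtDNA the count of 8 was 5 without BL/6J:NZB replicate 3 or NZB:NZB replicate 1 or 2, and 4 without NZB:NZB replicate 3. In livers on C57 mtDNA the count of 9 was 5 without NZB:C57 replicate 1. Of the calls, 8 of 12 lower ones in hearts on NZB mtDNA, 9 of 18 in hearts on C57 mtDNA, and 4 of 8 and 3 of 8 in livers were held without each library in turn.

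Phb, a prohibitin of the inner membrane, had the widest difference among the members. It had 97.5, 102 and 94.98 normalised reads in NZB:NZB hearts, against 185, 195 and 199 in BL/6J:NZB hearts, and 90.3, 95.7 and 101 in NZB:C57 hearts, against 207, 190.1 and 198 in BL/6J:C57 hearts. In livers it had 60.9, 55.1 and 53.8 in NZB:NZB, against 113, 118 and 124 in BL/6J:NZB, and 58.4, 59.97 and 57.1 in NZB:C57, against 142, 125 and 127 in BL/6J:C57. The groups were far apart in every pair. The log2 fold changes were -0.97 and -1.05 in hearts (SE 0.07 in each, adjusted p 7.65e-09 and 1.04e-09, limma) and -1.05 and -1.15 in livers (SE 0.08 in each, adjusted p 6.18e-07 and 2.27e-07) on NZB and C57 mtDNA.

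A near-identical copy of Phb moved the other way. Gm7666, annotated as a transcribed processed pseudogene at chr15:6653923-6654741 (plus strand) inside Fyb, matched 815 of the 816 coding bases of Phb (99.9%), which lies at chr11:95666957-95680773. The single substitution was A231G, with Phb first and positions counted from 1 at the first coding base. The stretch of 61 bases around it is printed because reads that miss this position read the same in both coding sequences, with the differing base in capitals.
Phb: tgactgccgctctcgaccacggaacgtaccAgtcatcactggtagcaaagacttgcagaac
Gm7666: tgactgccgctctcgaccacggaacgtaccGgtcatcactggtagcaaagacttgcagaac
Gm7666 averaged 88.5 ± 7.29 normalised reads in NZB:NZB hearts and 29.3 ± 7.97 in BL/6J:NZB hearts, and 88.0 ± 5.77 in NZB:C57 hearts and 25.4 ± 5.82 in BL/6J:C57 hearts (SD, n = 3 each). In livers it averaged 61.9 ± 4.27 in NZB:NZB and 25.5 ± 5.92 in BL/6J:NZB, and 61.5 ± 7.74 in NZB:C57 and 30.7 ± 8.70 in BL/6J:C57. The log2 fold changes of Gm7666 were 1.59 and 1.77 in hearts and 1.27 and 1.01 in livers (adjusted p 5.99e-07, 5.81e-08, 0.000243 and 0.00141, limma).

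**Figure D4:**
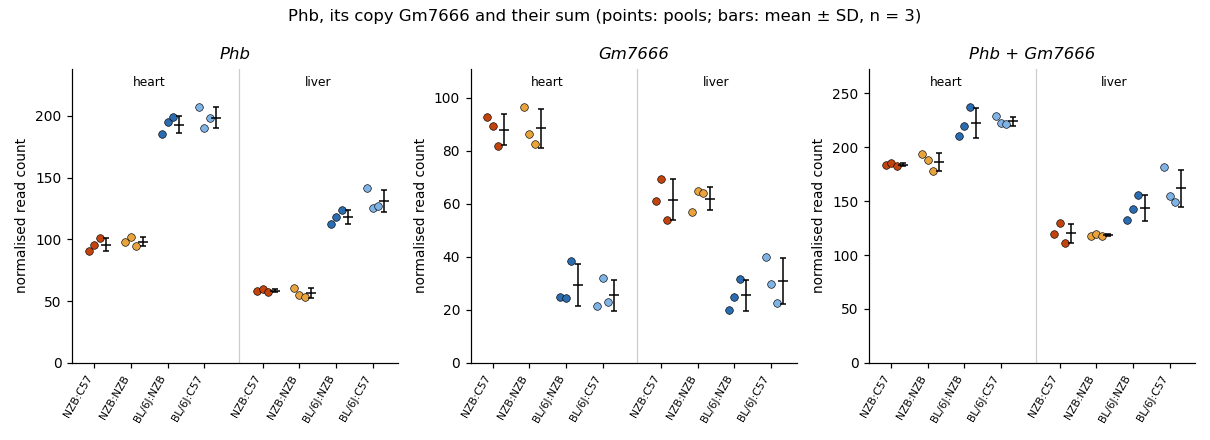
Normalised read counts (y axis) of Phb, of Gm7666 and of their sum in the 3 pools of each group (points), with mean ± SD beside them, hearts left and livers right. Phb is lower and Gm7666 higher in both NZB nuclear groups, and the sums lie closer together, at means of 184 and 187 in NZB nuclear hearts and 222 and 224 in BL/6J nuclear hearts.

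The sum of both genes averaged 187 ± 8.43 in NZB:NZB hearts and 222 ± 13.7 in BL/6J:NZB hearts, and 184 ± 1.23 in NZB:C57 hearts and 224 ± 4.04 in BL/6J:C57 hearts. In livers it averaged 119 ± 1.19 in NZB:NZB and 144 ± 11.7 in BL/6J:NZB, and 120.04 ± 9.17 in NZB:C57 and 162 ± 17.2 in BL/6J:C57. In a fit with Phb summed with Gm7666 and Fyb, an alternative chosen after seeing the data, the differences were -0.25 and -0.28 in hearts (adjusted p 0.00606 and 0.00204, limma) and -0.27 and -0.45 in livers (adjusted p 0.0582 and 0.00338). The size of the difference was thus under 0.5 on the log2 scale for the sum in each of the 4 comparisons, and the call in livers on NZB mtDNA was lost. The level of Phb alone is uncertain, because reads of both genes could be divided between them, and which reads moved was not tested. Phb2, the partner prohibitin, fell by 0.23 in NZB:C57 against BL/6J:C57 hearts (SE 0.07, adjusted p = 0.0181, limma), a call lost without BL/6J:C57 replicate 1 or NZB:C57 replicate 3 (0.0512 and 0.0746), and in none of the other pairs.

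Between tissues, most of the regulators and all fusion genes were higher in heart. Over all libraries, 11 members had every heart above every liver and 10 had every heart below every liver, against 26.8% and 26.3% of all genes, and 19 overlapped. Within genotypes, 18 members were higher and 16 lower in heart in BL/6J:NZB (against 37.5% and 38.4% of all genes), 16 and 17 in NZB:C57 (39.6% and 39.9%), 17 and 14 in NZB:NZB (37.8% and 37.4%), and 17 and 15 in BL/6J:C57 (37.3% and 39.8%). These shares are near the background. With library totals only, the median of all genes moved to between 0.31 and 0.74, so directions are given below only where both scalings held them in all 4 genotypes, unless stated.

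Higher in heart under both scalings were 13 members: the coactivators and receptors Ppargc1a, Ppargc1b, Esrra and Esrrg, all 3 fusion genes, Rrm2b, Mgme1, Tfb2m, Afg3l2, Spg7 and Phb. Ppargc1a ran from 77.4 to 106 normalised reads in the 12 hearts with a median of 94.8, and from 5.73 to 16.6 in the 12 livers with a median of 9.67. Its log2 fold change was 3.16 in BL/6J:NZB, 3.07 in NZB:C57, 2.80 in NZB:NZB and 3.57 in BL/6J:C57 (SE 0.19 in each, adjusted p at most 5.79e-12, limma). Esrrg ran from 31.1 to 60.2 in hearts (median 41.9) and from 2.34 to 5.86 in livers (median 4.07). Rrm2b, which supplies nucleotides outside cell division, ran from 32.8 to 45.3 in hearts (median 40.1) and from 3.29 to 6.34 in livers (median 4.56). Mfn2 ran from 658 to 1042 in hearts (median 745) and from 95.5 to 153 in livers (median 112). The libraries of both tissues were far apart for these 4 genes.

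**Figure D5:**
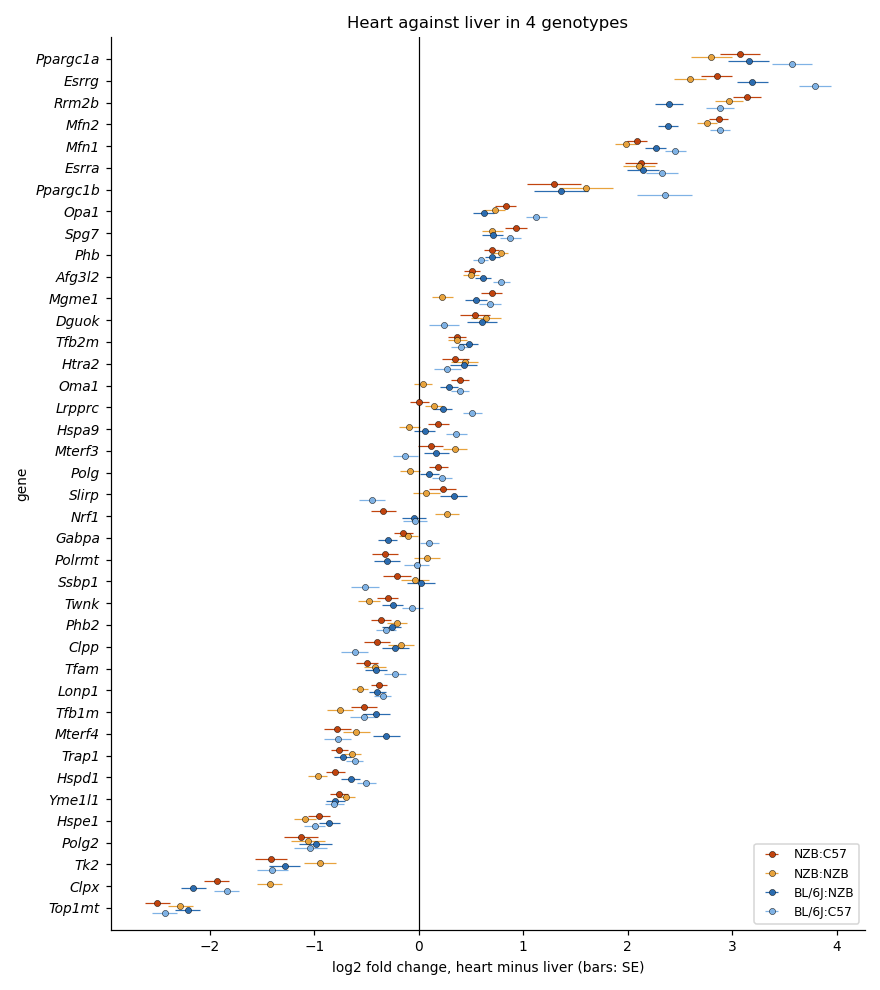
Log2 fold change of heart minus liver (x axis, bars are SE) of the 40 genes (y axis, ordered by their mean) in the 4 genotypes. Ppargc1a, Esrrg, Rrm2b and Mfn2 lie above 2 in every genotype and Top1mt below -2, while 27 of the 40 genes lie between -1 and 1 in all 4.

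Lower in heart under both scalings were Top1mt and Clpx. Top1mt ran from 4.25 to 6.09 normalised reads in hearts (median 5.17) and from 27.0 to 35.7 in livers (median 30.1). Its log2 fold change was -2.21 in BL/6J:NZB, -2.50 in NZB:C57, -2.28 in NZB:NZB and -2.43 in BL/6J:C57 (SE 0.12 in each, adjusted p at most 5.20e-14, limma). Clpx ran from 91.8 to 127 in hearts (median 108) and from 296 to 565 in livers (median 380.2). With the authors' scaling alone, 10 others were lower in heart in all 4 genotypes, among them Hspd1, Hspe1, Trap1, Lonp1 and Yme1l1 of the chaperones and proteases, and Polg2, Tk2, Tfb1m, Mterf4 and Phb2. Library totals gave none of these 10 lower in all 4, and 5 of them (Lonp1, Phb2, Tfb1m, Hspd1 and Trap1) were then called higher in more genotypes than lower. The other 15, which include Twnk, Tfam and Polrmt, did not keep a direction in all 4 with the authors' scaling. With library totals, 9 of the 15 (Polg, Dguok, Mterf3, Lrpprc, Slirp, Gabpa, Hspa9, Oma1 and Htra2) were higher in heart in all 4. Tfam ran from 36.9 to 48.0 in hearts and from 46.5 to 63.1 in livers, so the tissues overlapped.

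Other genes of mitochondrial gene expression and quality control were counted in 6 lists that hold no member, with 157 genes tested in livers and 158 in hearts. In conplastic against parental livers 0 genes were higher and 0 lower with the BL/6J nuclear genome, and 0 higher and 3 lower with the NZB nuclear genome, Slc25a4, Tymp and Slc25a36, against 0.0076% and 0.0% of all genes with the BL/6J and 3.65% and 4.44% with the NZB nuclear genome. In conplastic against parental hearts 0 were higher and 2 lower with the BL/6J nuclear genome, Vars2 and Prepl, and 5 were higher and 2 lower with the NZB nuclear genome, against 0.427% and 0.507% of all genes with the BL/6J and 13.0% and 2.89% with the NZB nuclear genome. Between nuclear genomes, 38 were lower and 5 higher in hearts on NZB mtDNA (24.1% and 3.16%, against 13.6% and 15.5% of all genes), and 39 and 4 on C57 mtDNA (24.7% and 2.53%, against 13.1% and 22.1%). In livers 25 were lower and 8 higher on NZB mtDNA (15.9% and 5.10%, against 11.9% and 12.9%) and 29 and 7 on C57 mtDNA (18.5% and 4.46%, against 14.8% and 13.1%), so the lower shares in livers were near the background.

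Of the 22 mitochondrial aminoacyl-tRNA synthetase genes and their partners, 8 and 9 fell in hearts on NZB and C57 mtDNA and 3 and 2 in livers. Lars2, the leucyl-tRNA synthetase, gave -1.29 and -1.61 in hearts (adjusted p 3.39e-06 and 8.70e-08, limma), and Rars2 gave -0.97 and -0.90 there but 0.46 in livers on C57 mtDNA (adjusted p = 0.00763). Wars2 rose in hearts by 0.43 and 0.46 (adjusted p 0.0155 and 0.00775). Of the 30 protein import genes, 8 and 6 fell in hearts, 6 and 10 fell in livers and 0 rose. Timm17a, a channel subunit of the inner membrane, was among them in both tissues (-0.45 and -0.56 in hearts, -0.51 and -0.47 in livers). Of 35 genes of mitochondrial RNA processing, 3 and 7 fell in hearts and 5 and 6 in livers, and Trmt61b, a tRNA and rRNA methyltransferase, fell by 0.69 to 1.24 in all 4 comparisons. Of 18 translation factors, 4 and 6 fell in hearts and 2 and 2 in livers, with Mtif3 lower in all 4 (-0.34 and -0.50 in hearts, -0.66 and -0.80 in livers). Of the 28 other proteases and quality control genes, 8 and 8 fell in hearts and 6 and 7 in livers. Of 25 other replication and repair genes tested in hearts, 7 and 3 fell, and of 24 in livers 3 and 2. Against the all-gene lower shares of 13.6% and 13.1% in hearts and 11.9% and 14.8% in livers, the counts of the synthetases, the translation factors, RNA processing and repair in livers (8.33% to 17.1%), of RNA processing in hearts on NZB mtDNA (8.57%) and of repair in hearts on C57 mtDNA (12%) were near or below the background and are no result about those lists.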

How the data were processed

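Polyadenylated RNA of 24 pools was sequenced on a Genome Analyzer IIx, per the labels' protocols. The deposited table holds signal values, read counts per gene that the authors normalised, by a scaling that the sources used here do not describe. The submitters' processing notes name cutadapt 1.2.1, Bowtie2 2.0.6, RSEM 1.2.3, edgeR and GRCm38, with no role or order. Dividing by the smallest step gave whole reads for 100% of values within 0.02 reads, and all 24 library columns were matched, with 0 left over. Symbols were found for 15106 of 15323 genes (GENCODE vM21), and 55 genes equal another gene in every library.

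Values were tested as log2(value + 1) with limma 3.58.1 (trend, R 4.3.3) in 1 fit per tissue or over both tissues, after keeping genes at 1 or more in at least 3 libraries (13159 in livers, 13803 in hearts, 14968 over both). Fold changes are on the log2(value + 1) scale and understate those of low genes. Calls use a Benjamini-Hochberg adjusted p under 0.05, adjusted over every gene in the fit. The fit over both tissues took their pools as independent. edgeR 4.0.16 quasi-likelihood and DESeq2 1.42.0 on recovered reads, another pseudocount, no filter, TMM, library totals only, only the groups compared, a replicate block and leaving out each pool were alternatives, and 2 more (summing near-identical genes, and subtracting the all-gene median) were chosen after seeing the data. Fits were also run on simulated data, and no result of this is given here for the main fits or for any alternative. Deviations of same-numbered pools from their group means correlated at 0.19 to 0.28 in all 3 pairs of NZB:NZB and BL/6J:NZB livers, over the threshold of 0.1 for taking numbers as pairs, which no other comparison met in every pair. This pairing is read from the data, since the labels do not say what a number shares. Pools with different numbers were not compared, so whether the numbers mark pairs was not tested.

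The members and lists were chosen with earlier results of these data known. All 40 members are accounted for, with full statistics for up to 8 called members per comparison by smallest p, and up to 3 genes per other list and direction. Python 3.11.15 found the motifs on both strands. No 2 libraries of a group agreed within sampling noise. No source used here says whether counting used strand, and 25 of 40 members overlap a gene on the other strand. Tfb2m, Hspd1, Hspe1 and Phb share at least 10% of their 31-base words with another gene. Sequence differences of the NZB genome from the assembly could alter counts, which was not tested. mRNAs encoded in mtDNA are not analysed here.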

Additional observations from a re-analysis of the deposited data

Results flagged for a closer look

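In hearts, 3 genes had a test of the interaction between nuclear genome and mtDNA that passed, read as the mean of both conplastic effects: Slirp 0.30, Polrmt -0.27 and Lrpprc -0.16 on the log2 scale. These are 2.5% of members higher and 5% lower, against 9.81% and 1.42% of all genes. The calls of Polrmt and Lrpprc were lost without most single hearts. That of Slirp was lost with library totals only, at -0.02 where the median of all genes was -0.30.

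The effect of NZB:C57 against NZB:NZB differed between heart and liver for 4 genes by a test of that difference: Mgme1 0.47, Oma1 0.35, Clpx -0.51 and Nrf1 -0.61 (heart effect minus liver effect, log2). These are 5% of members higher and 5% lower, below the 16.2% and 7.66% of all genes. With library totals only Mgme1 was at 0.015 and lost its call, and Oma1 was at -0.10. NZB:C57 hearts also had the highest summed cardiomyocyte markers, and the part of this in the 4 values was not tested.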

How the results depend on the processing

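Counts of called members depended most on the scaling and on single pools. With library totals only, 9 members were called in NZB:C57 against NZB:NZB livers, 40 in the same hearts, 36 for mismatch in hearts, 39 in NZB:C57 against BL/6J:C57 hearts and 24 for the heart minus liver effect of NZB:C57. In the same order, 19.5%, 74.1%, 61.2%, 65.0% and 43.8% of all genes fell, and 2.70%, 5.82%, 4.96%, 11.9% and 9.54% rose. Values there move with the median of all genes. Htra2 then turned to -0.058 in NZB:C57 against BL/6J:C57 hearts, and Slirp to -0.021 for mismatch in hearts. In the heart minus liver effect of NZB:C57, Oma1 turned to -0.10 and Mgme1 lost its call at 0.015. With only the groups compared, counts were 1 in NZB:C57 against NZB:NZB livers, 4 in NZB:C57 against BL/6J:C57 livers and 4 in BL/6J:NZB against BL/6J:C57 hearts. In those BL/6J hearts TMM and edgeR gave 2, DESeq2 4 and the replicate block 0 (Slirp adjusted p = 0.0664). DESeq2 gave 3 for the heart minus liver effect of BL/6J:NZB, and for that of NZB:C57 edgeR gave 2, DESeq2 0 and the replicate block 2. The cause of these changes was not tested. Apart from library totals only, the counts here and in the next paragraph are given without shares of all genes. They are therefore no result about the members against other genes.

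Leaving out each pool gave 0 to 0 in BL/6J:NZB against BL/6J:C57 livers and 0 to 3 in hearts, 0 to 0 in NZB:C57 against NZB:NZB livers and 0 to 1 in hearts, 0 to 1 for mismatch in livers and 1 to 3 in hearts, 4 to 7 and 5 to 8 between nuclear genomes in livers on NZB and C57 mtDNA, 8 to 17 and 13 to 17 in hearts, 29 to 33 between tissues in BL/6J:NZB, 31 to 33 in NZB:C57, 28 to 30 in NZB:NZB and 31 to 34 in BL/6J:C57, and 0 to 8 and 2 to 4 for the heart minus liver effects of BL/6J:NZB and NZB:C57. Same-numbered pools correlated over 0.1 in every pair only in NZB:NZB against BL/6J:NZB livers, and the labels do not say that they share anything. There the replicate block gave 6 calls, without Tfb2m and Tk2, against 8. In the other comparisons not every same-numbered pair correlated over 0.1 (range -0.25 to 0.18 within tissues, -0.09 to 0.25 across). Reads per library overlapped between tissues, and the shallowest was a heart with 3714278.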
